A study of Mus musculus with 22 samples.

Results

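The genes of inhibitory transmission followed here were Gad1, Gad2, Slc32a1, Slc6a5, Glra1, Glra3 and Gabra2. They were taken by name, and all 7 were measured among 18193 genes on Affymetrix Mouse430_2 arrays. For each gene the probe set with the highest mean over all arrays was used, and the others served as a check. The tissue was spinal cord from C57Bl/6 mice, all wild type and 10 to 12 weeks old, whose aorta had been clamped for 7.5 min or who had undergone sham surgery without clamping. Cord above T6 (rostral) and cord below T6 (caudal) were hybridised separately. In caudal cord there were 3 sham arrays (numbered 278 to 280), 3 arrays at 24 h (281 to 283) and 4 arrays at 48 h (271 to 274). In rostral cord there were 4 sham arrays (277 to 280), 3 arrays at 24 h (281 to 283) and 4 arrays at 48 h (271 to 274). Another rostral array, 276, has labels that name both 24 h and 48 h and stood in no group. The labels do not say whether arrays came from separate mice, so p-values measure the spread between arrays, which may be technical. Levels are log2 RMA signals, differences are differences of these signals with their standard errors (SE), and each adjusted p comes from limma after Benjamini-Hochberg correction across the 18193 genes. A gene was called at an adjusted p under 0.05.

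GABA and glycine are the fast inhibitory transmitters of the spinal cord, and many spinal interneurons release both. GABA is made from glutamate by the glutamate decarboxylases, glycine is gathered by a transporter of the plasma membrane, and both are loaded into synaptic vesicles by a shared vesicular transporter. Released transmitter opens chloride channels built from GABA-A receptor or glycine receptor subunits, which damps motor output and gates sensory input.

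Neuronal genes were bright, since the mean of 12 pan-neuronal genes lay between 11.41 and 12.60 on the grouped arrays. These genes do not tell spinal cord from other neural tissue. Some arrays stood apart. Probe sets on 48 h caudal array 271 spread less (SD 2.05, where other arrays had 2.21 to 2.27), and the median correlation of this array to the rest was 0.912, where theirs were 0.974 to 0.995. The signal of the 5' Gapdh control probe set lay 1.05 below the 3' one on 48 h caudal array 274 and 0.68 below it on sham caudal array 280, and between 0.21 below and 0.04 above it on the other 20 arrays. The caudal array numbered 283 carried the level of caudal Hox genes seen in rostral cord (mean 5.62), and the rostral array numbered 283 that of caudal cord (mean 9.37). The 7 genes in 48 h caudal against sham caudal cord are given with and without array 271. Fits without the caudal arrays 271, 274 and 280, or without both arrays numbered 283, are given for some results.

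Of the 7 genes, 6 have a promoter entry in the table made from RefSeq, with 250 bases before to 50 after an annotated start. For Gabra2 this start is the outer end of the gene as annotated, whereas for Gad1 it lies 826 bases and for Slc32a1 3498 bases inside it. The promoters of 3 genes are printed because their genes behaved differently in 48 h caudal cord. Slc32a1 carried the difference that was called once array 271 was left out, Gad1 differed least of the 7 without that array, and Gabra2 had probe sets that were called with all arrays. Positions are on GRCm38.p6, sequences run 5' to 3', and capitals mark matches on either strand. The motifs searched were the TATA box, spelled TATAAA, the CCAAT box by those 5 letters, the GC box as GGGCGG, the half-site of the cyclic AMP response element (CRE) as TGACG, and the E-box as CACGTG.
Slc32a1, chr2:158610508-158610807, plus strand: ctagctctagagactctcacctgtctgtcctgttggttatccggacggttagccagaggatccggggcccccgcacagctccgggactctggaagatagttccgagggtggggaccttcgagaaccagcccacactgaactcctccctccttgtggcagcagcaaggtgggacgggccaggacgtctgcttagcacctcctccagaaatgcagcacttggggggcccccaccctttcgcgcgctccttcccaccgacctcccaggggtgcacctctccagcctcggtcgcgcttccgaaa
Gad1, chr2:70561879-70562178, plus strand: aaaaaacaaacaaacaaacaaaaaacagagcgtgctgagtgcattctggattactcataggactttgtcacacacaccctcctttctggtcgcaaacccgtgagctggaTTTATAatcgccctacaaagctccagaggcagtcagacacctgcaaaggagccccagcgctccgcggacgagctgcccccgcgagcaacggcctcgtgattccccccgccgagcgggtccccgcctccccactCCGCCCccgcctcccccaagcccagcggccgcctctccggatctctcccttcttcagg
Gabra2, chr5:71095800-71096099, minus strand: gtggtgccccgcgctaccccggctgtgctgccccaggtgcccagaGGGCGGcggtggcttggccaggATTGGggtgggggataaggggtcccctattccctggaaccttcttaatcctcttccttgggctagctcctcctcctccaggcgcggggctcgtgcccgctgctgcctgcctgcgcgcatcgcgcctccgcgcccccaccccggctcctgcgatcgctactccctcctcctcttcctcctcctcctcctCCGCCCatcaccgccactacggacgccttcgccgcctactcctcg
The Gad1 window held TTTATA, which is the TATA box on the other strand, at base 110 and a GC box on the other strand (CCGCCC) at base 243, counted from 1 at the 5' end. The Gabra2 window held a GC box at base 46, another on the other strand at base 256, and a CCAAT box on the other strand at base 68. None of these letters was found in the Slc32a1 window. Among 32851 RefSeq promoters of the same length, 13.6% held the TATA box, 37.4% the CCAAT box, 35.7% the GC box, 20.8% the CRE half-site and 7.15% the E-box. The G and C content was 63.3% for Slc32a1, 60% for Gad1 and 70% for Gabra2, where the median promoter had 52.7%. These matches describe the letters of the windows.

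With all arrays, none of the 7 genes was called by limma in any of the 9 comparisons made. In caudal cord at 48 h, 12.5% of all genes were called against sham, and 3 of the 7 genes (Slc32a1, Glra1 and Gabra2) had an unadjusted p under 0.05, as had 34.3% of all genes. The median difference of the 7 genes was -0.53 on the log2 scale, with 6 of 7 below 0, where the median of all genes was 0.00. Without array 271 the median was -0.11 (all genes -0.04), 15.1% of all genes were called, and 1 of the 7 genes, the vesicular transporter Slc32a1, was called lower (8.88% of all genes were called in that direction).

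**Figure D1:**
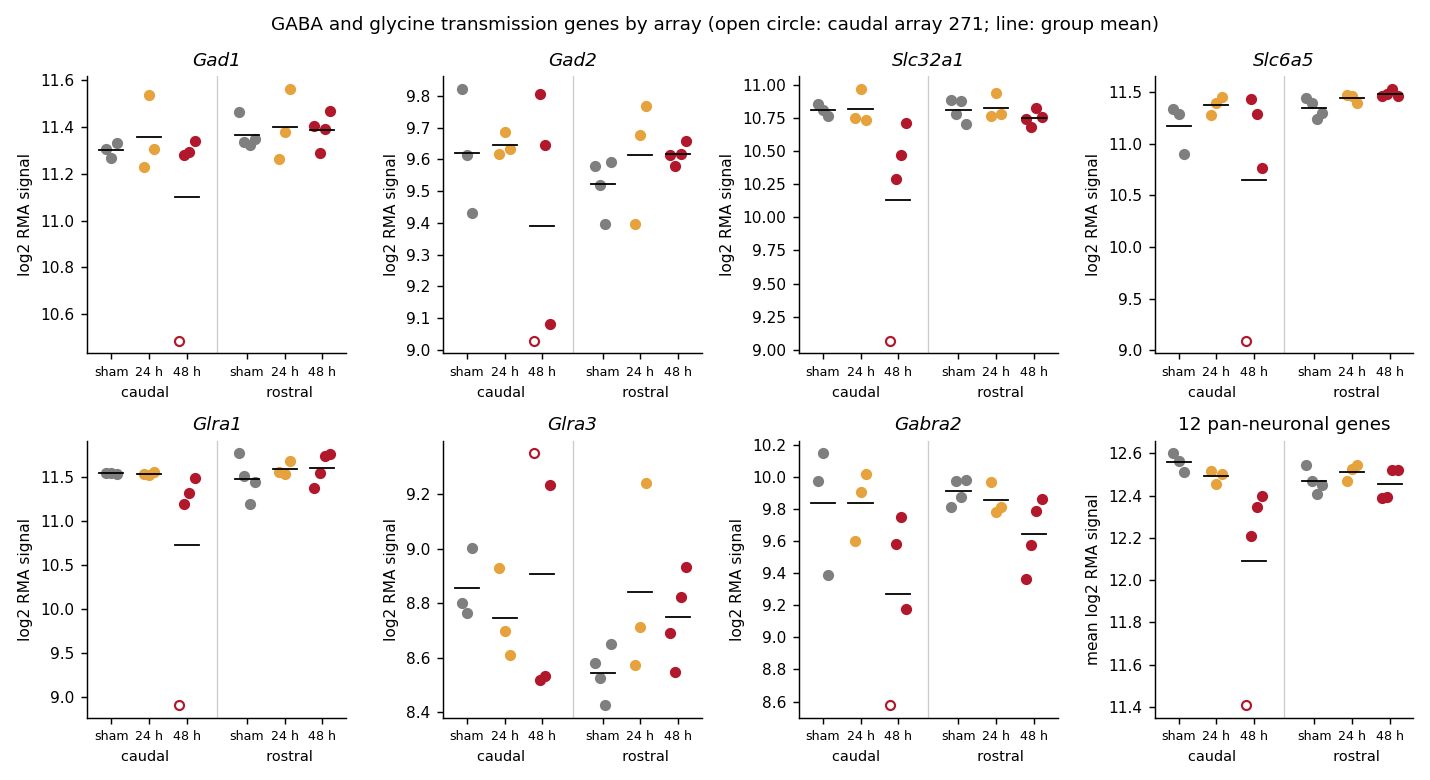
Log2 RMA signal of the 7 genes on each of 21 arrays, in caudal and rostral cord by time, with group means as lines, and the mean of 12 pan-neuronal genes in the last panel. Array 271 of the 48 h caudal group, the open circle, is the lowest point for every gene except Glra3, where it is the highest, and in Slc32a1 all 4 arrays of that group lie below every sham and 24 h caudal array.

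Synthesis came first in the order of roles. Gad1 encodes GAD67, the decarboxylase that supplies most of the GABA of the cell body. Its caudal signals were 11.31, 11.27 and 11.33 in sham cord, 11.23, 11.54 and 11.31 at 24 h, and 10.49, 11.28, 11.29 and 11.34 at 48 h. Array 271 was the only caudal array below the sham range at 48 h, and the 24 h arrays overlapped sham as well. Gad1 averaged 11.10 ± 0.41 in 48 h caudal cord (SD, n = 4) and 11.30 ± 0.03 in sham caudal cord (SD, n = 3), a difference of -0.20 ± 0.15 (SE, adjusted p = 0.338). Without array 271 the difference was 0.00 ± 0.08, with a 95% interval from -0.17 to 0.18. The second Gad1 probe set, 1416562_at (mean 9.96), did not match this. Without the caudal arrays 271, 274 and 280 it differed from sham by 0.40 ± 0.17, where the one used differed by -0.0009. With every probe set tested as its own feature by limma, its adjusted p was 0.119.

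Gad2 encodes GAD65, the form that sits mainly at nerve terminals. In caudal cord it read 9.82, 9.61 and 9.43 in sham cord, 9.62, 9.69 and 9.63 at 24 h, and 9.03, 9.81, 9.64 and 9.08 at 48 h. Arrays 271 and 274 were the low ones at 48 h, and the groups overlapped. The 48 h caudal minus sham difference was -0.23 ± 0.15 (SE, adjusted p = 0.279), and -0.11 ± 0.14 without array 271 (adjusted p = 0.652). Without the caudal arrays 271, 274 and 280 it was 0.01, and 0.11 ± 0.15 for the second probe set, 1421978_at.

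Slc32a1 encodes the vesicular transporter for GABA and glycine (VGAT), which loads both into synaptic vesicles. Its caudal signals were 10.85, 10.81 and 10.76 in sham cord, 10.75, 10.97 and 10.73 at 24 h, and 9.07, 10.28, 10.47 and 10.71 at 48 h. All 4 arrays at 48 h lay below every sham and every 24 h array of caudal cord, array 274 by the narrowest margin and array 271 by the widest. In rostral cord the signals lay between 10.70 and 10.88 in sham cord, 10.76 and 10.94 at 24 h, and 10.68 and 10.82 at 48 h. Rostral groups thus overlapped at all times.

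With all arrays Slc32a1 averaged 10.13 ± 0.73 in 48 h caudal cord (SD, n = 4) and 10.81 ± 0.05 in sham caudal cord (SD, n = 3), a difference of -0.68 ± 0.24 (SE) that missed the threshold (adjusted p = 0.0644). Without array 271 the difference was smaller and passed, at -0.32 ± 0.10 (SE, adjusted p = 0.0295, 95% interval from -0.52 to -0.12), with all 3 remaining arrays below all 3 sham arrays. The spread of the 48 h caudal group was then 0.21 (SD, n = 3). Set against 24 h caudal cord, the difference was -0.68 ± 0.24 with all arrays (adjusted p = 0.0876), where 6.69% of all genes were called, and -0.33 ± 0.10 without array 271 (adjusted p = 0.0383), where 8.87% were called and 3.69% called lower. With all arrays 4 of the 7 genes had an unadjusted p under 0.05 in this comparison (Slc32a1, Slc6a5, Glra1 and Gabra2), as had 25.0% of all genes. Against 48 h rostral cord it was -0.62 ± 0.22 with all arrays (adjusted p = 0.0818) and -0.26 ± 0.09 without array 271 (adjusted p = 0.0654), with 9.71% of all genes called with all arrays and 10.9% without it, 4.81% in the lower direction.

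The call of Slc32a1 without array 271 rested on few arrays. When each other array was left out as well, it was called against sham in 15 of 20 fits, and missed the threshold without 48 h caudal array 272 or 273 or sham caudal array 278, 279 or 280. Against 24 h caudal cord it was also called in 15 of 20 fits, missing without 48 h caudal array 272 or 273, sham rostral array 278 or 24 h caudal array 282 or 283, and against 48 h rostral cord in 1 of 20. Without the caudal arrays 271, 274 and 280, which leaves 2 arrays in the sham and 2 in the 48 h caudal group, the difference from sham was -0.46 ± 0.10 (SE, adjusted p = 0.00333), while 25.6% of all genes were called. In the same fit it was -0.44 ± 0.09 against 24 h caudal cord (adjusted p = 0.00271, 20.6% of all genes called) and -0.37 ± 0.09 against 48 h rostral cord (adjusted p = 0.00626, 17.6% called). The other 3 probe sets of Slc32a1 had means of 5.63 to 6.32, far dimmer than the 10.68 of the one used, and differences from sham of 0.32, 0.20 and -0.03 with all arrays. On array 271 the dimmest of these, 1447573_at, read 6.54, against 5.33 to 5.60 on sham caudal arrays, while the bright one was low. The mean over the 4 probe sets differed from sham by -0.05 (adjusted p = 0.619), and a fit of the 2 caudal groups alone gave an adjusted p of 0.517.

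Slc6a5 encodes GlyT2, the transporter of the plasma membrane by which glycinergic neurons take up glycine. Caudal arrays read 11.34, 11.28 and 10.90 in sham cord, 11.28, 11.39 and 11.45 at 24 h, and 9.09, 11.43, 11.29 and 10.77 at 48 h. Low values stood on 271, on 274 and on sham array 280, and the other 48 h arrays lay within or above the sham range. The 48 h caudal minus sham difference was -0.53 ± 0.34 (SE, adjusted p = 0.266), and -0.01 ± 0.13 without array 271 (adjusted p = 0.971). Without the caudal arrays 271, 274 and 280 the second probe set, 1425992_at (mean 6.32), differed by 0.56 ± 0.31. The one used differed by 0.05 in that fit. Against 48 h rostral cord, whose signals were 11.46 to 11.53, all 4 caudal arrays were lower, with a difference of -0.84 ± 0.32 (adjusted p = 0.0983), and of -0.32 ± 0.12 without array 271 (adjusted p = 0.104). Groups did not overlap in that direction for 6.26% of all genes in the same comparison.

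Among the receptors, Glra1 encodes the alpha1 subunit of the adult glycine receptor, in which mutations cause startle disease. Its caudal signals were 11.55, 11.55 and 11.54 in sham cord, 11.54, 11.53 and 11.56 at 24 h, and 8.91, 11.19, 11.32 and 11.49 at 48 h. All 4 arrays at 48 h lay below the narrow band of the sham and 24 h arrays. The difference from sham was -0.82 ± 0.39 (SE, adjusted p = 0.144), and -0.21 ± 0.12 without array 271 (adjusted p = 0.249). Its second probe set, 1422277_at, differed by -0.99 ± 0.48 (adjusted p = 0.170) and by -0.29 ± 0.23 without array 271. In rostral sham cord Glra1 ranged from 11.19 to 11.77, so the 48 h caudal arrays other than 271 were inside the rostral sham range. Non-overlap in the lower direction, which Slc32a1 and Glra1 showed, held for 11.1% of all genes in 48 h caudal against sham caudal cord and for 6.94% against 24 h caudal cord.

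Glra3 encodes the alpha3 subunit of the glycine receptor, found in the superficial dorsal horn. Signals in caudal cord were 8.80, 8.76 and 9.00 in sham cord, 8.93, 8.70 and 8.61 at 24 h, and 9.35, 8.52, 8.53 and 9.23 at 48 h. At 48 h arrays 271 and 274 were the high ones, and 272 and 273 lay below the sham range. For every other gene array 271 was the lowest of its group, while array 274 was low for Gad2, Slc6a5 and Gabra2 alone. The difference from sham was 0.05 ± 0.19 (SE, adjusted p = 0.849), and -0.09 ± 0.18 without array 271 (adjusted p = 0.773). Its second probe set, 1450239_at, with a mean of 5.31, differed by 0.29 ± 0.14 (adjusted p = 0.163) and by 0.12 ± 0.09 without array 271.

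Gabra2 encodes the alpha2 subunit of the GABA-A receptor, a form common in the spinal cord. Its caudal signals were 9.98, 10.15 and 9.39 in sham cord, 9.60, 9.90 and 10.02 at 24 h, and 8.58, 9.58, 9.75 and 9.17 at 48 h. The groups overlapped since sham array 280 lay inside the range of the 48 h arrays. The difference from sham was -0.57 ± 0.22 (SE, adjusted p = 0.0838), and -0.34 ± 0.18 without array 271 (adjusted p = 0.209). When each other array was left out besides 271, it was called in 1 of 20 fits, the one without sham caudal array 280. Without the caudal arrays 271, 274 and 280 the difference was -0.40 ± 0.15 (adjusted p = 0.0629).

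**Figure D2:**
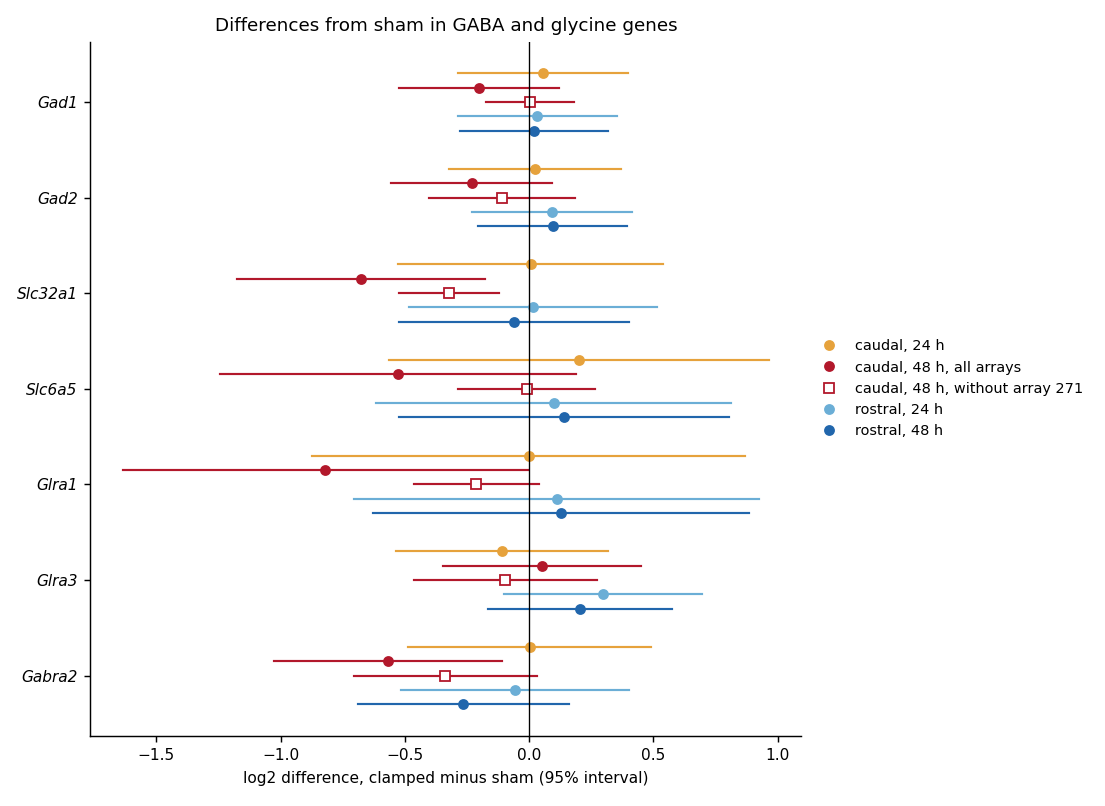
Log2 differences from sham of the same region for each gene with 95% intervals (horizontal axis), at 24 h and 48 h, in caudal cord (with and without array 271 at 48 h) and rostral cord. Without array 271 the interval of Slc32a1 in 48 h caudal cord runs from -0.52 to -0.12, and the intervals of the other 6 genes there hold 0.

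Gabra2 was the gene whose probe sets differed in their calls, which is why the other 2 bright ones are given. Probe set 1455444_at read 9.44, 9.34 and 9.13 in sham caudal cord, 8.91, 9.13 and 9.20 at 24 h, and 8.64, 8.28, 8.67 and 8.86 at 48 h. All 4 arrays at 48 h lay below all sham and all 24 h caudal arrays, and array 271 was inside the group. When every probe set was tested as its own feature, its difference from sham was -0.69 ± 0.17 (SE, adjusted p = 0.0149) with all arrays, where 10.0% of probe sets were called. Without array 271 it was -0.70 ± 0.18 (adjusted p = 0.0162), where 11.3% were. Probe set 1443865_at differed by -0.74 ± 0.22 with all arrays (adjusted p = 0.0418) and by -0.69 ± 0.24 without array 271 (adjusted p = 0.0679). Leaving out the caudal arrays 271, 274 and 280 left 2 arrays in each of these groups. In that fit both were called, 1455444_at at -0.92 ± 0.20 (adjusted p = 0.00472) and 1443865_at at -0.80 ± 0.21 (adjusted p = 0.0140). By gene, 25.6% of all genes were called without those arrays.

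In rostral cord at 48 h the same 2 probe sets differed from sham by -0.33 ± 0.15 (1455444_at, adjusted p = 0.732) and -0.34 ± 0.21 (1443865_at, adjusted p = 0.963), and the one used for the gene by -0.26 ± 0.20. All 3 were below 0 in both regions, and none was called in rostral cord. Against 24 h caudal cord, 1455444_at differed by -0.47 ± 0.17 (adjusted p = 0.104), where 5.21% of probe sets were called, and by -0.47 ± 0.18 without array 271 (adjusted p = 0.114), where 6.58% were. Without the caudal arrays 271, 274 and 280 it was called there, at -0.61 ± 0.18 (adjusted p = 0.0335), as were 16.0% of probe sets. The remaining 2 probe sets of Gabra2 had means of 4.39 and 3.63, under the lower quartile of every array, with differences from sham of -0.06 and -0.03. The mean over all 5 probe sets differed by -0.42 between 48 h caudal and sham caudal cord (adjusted p = 0.0282).

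**Figure D3:**
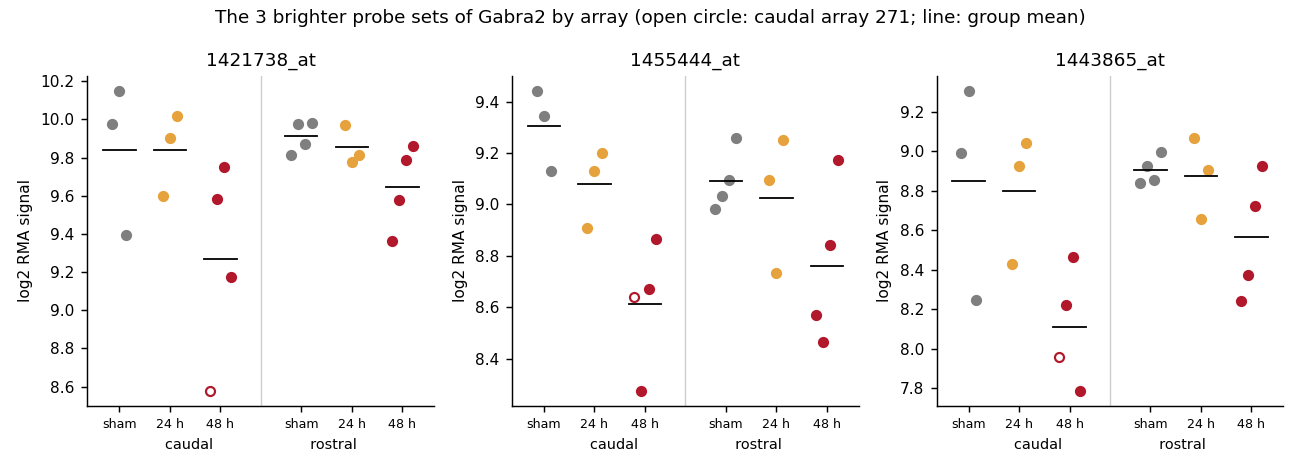
Log2 RMA signal on 21 arrays of the 3 Gabra2 probe sets with means above 8, by region and time, with group means as lines. In 1455444_at, in the middle, the 4 arrays of 48 h caudal cord (8.28 to 8.86) lie below the 3 sham caudal arrays (9.13 to 9.44), and array 271, the open circle, does not stand apart.

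Several second probe sets moved with the Gapdh 5' minus 3' difference, the sign of RNA quality noted for arrays 274 and 280. Across the 20 arrays without 271, the correlation with it was 0.93 for the second Gad1 probe set (1416562_at), 0.84 for that of Gad2 (1421978_at), 0.84 for that of Slc6a5 (1425992_at) and 0.73 for that of Glra1 (1422277_at). For the probe sets used, it was 0.08 for Gad1, 0.63 for Gad2, 0.90 for Slc6a5, -0.04 for Glra1, -0.67 for Glra3, 0.68 for Gabra2 and -0.01 for Slc32a1. These are descriptions over arrays that share groups, and arrays 274 and 280 span most of the range. The second Gad1 probe set read 9.00 on 274 and 8.88 on 280, against 9.70 and 10.05 on the other sham caudal arrays. The Slc32a1 probe set read 10.71 on 274 and 10.76 on 280. The bright Gabra2 probe set 1455444_at had a correlation of -0.03. For 1443865_at the correlation was 0.63, and it read 7.79 on 274 and 8.25 on 280. The part of RNA quality in the differences of Gad1, Gad2, Slc32a1, Slc6a5, Glra1, Glra3 and Gabra2 was not tested.

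**Figure D4:**
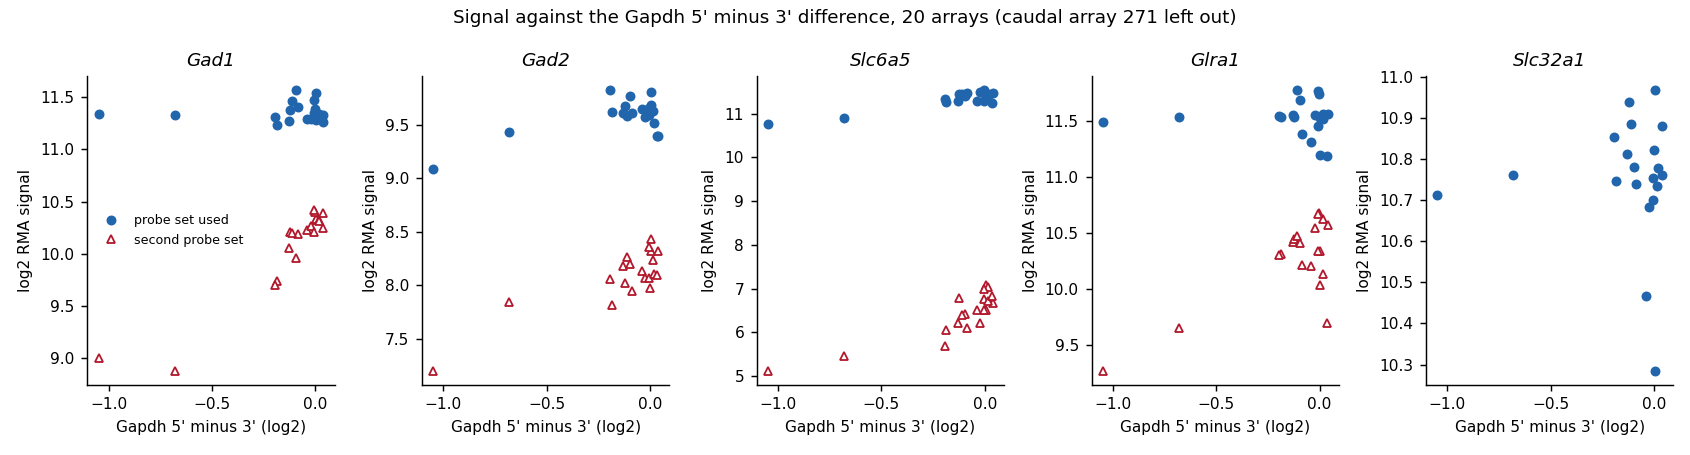
Log2 RMA signal on 20 arrays (271 left out) against the Gapdh 5' minus 3' difference on the log2 scale, for the probe set used (filled) and, where shown, a second one (open) of 5 genes. The points at -1.05 and -0.68 are caudal arrays 274 and 280, which hold the lowest 2 points of the second probe sets of Gad1, Slc6a5 and Glra1, while Slc32a1 stays within the range of the others.

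The neuronal signal as a whole was also lower in 48 h caudal cord. The mean of the 12 pan-neuronal genes was 11.41 to 12.40 there and 12.51 to 12.60 in sham caudal cord. All 12 genes lay below 0 in the comparison, and 3 of 12 were called lower, where 1277 of all 18193 genes were. Without array 271 the pan-neuronal mean was 12.21 to 12.40 at 48 h. Then 11 of 12 genes lay below 0 and 5 were called lower, where 8.88% of all genes were. In bulk tissue, fewer cells of a type and less RNA per cell cannot be told apart. On single arrays the pan-neuronal mean differed from its sham mean by -1.15 (271), -0.35 (272), -0.21 (273) and -0.16 (274) on the log2 scale. Slc32a1 differed from its own sham mean by -1.74, -0.52, -0.34 and -0.10 on the same arrays, so it was lower than the pan-neuronal mean on 3 of 4. Gad1 was higher relative to that mean on all 4 arrays, by 0.33, 0.33, 0.21 and 0.20. Glra1 was within 0.02 of it on 272 and 273, and at -1.49 relative to it on 271. With every array centred on the pan-neuronal mean, which moved all differences from sham in 48 h caudal cord by 0.47, Slc32a1 differed by -0.21 (adjusted p = 0.173) and Gad1 by 0.27 (adjusted p = 0.0582).

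**Figure D5:**
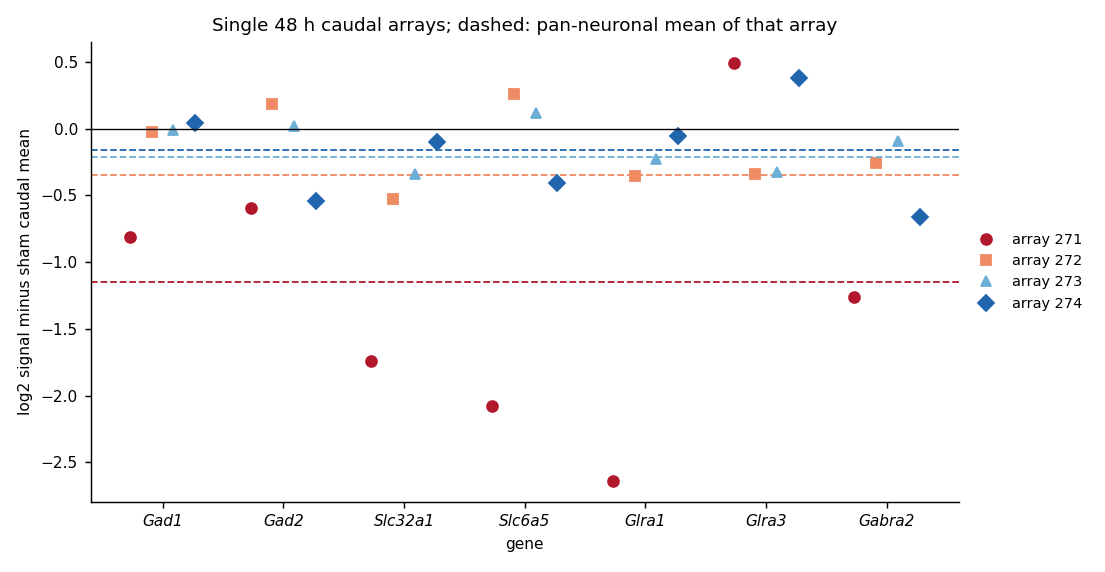
Log2 signal minus the sham caudal mean for each gene on the 4 single 48 h caudal arrays (symbols), with the pan-neuronal mean of each array as a dashed line of the same colour. Gad1 lies above the dashed line of its array on all 4 arrays, and Slc32a1 below it on 271, 272 and 273.

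Markers of other cells moved in the same group, where 1005 of all 18193 genes were called higher and 1277 lower against sham. In 48 h caudal against sham caudal cord, 5 of 6 reactive astrocyte genes were called higher (mean 10.57 to 12.84 against 9.55 to 9.69) and 3 of 8 motor neuron genes lower (mean 7.04 to 7.72 against 7.82 to 7.99). Of 6 excitatory neuron genes 1 was called higher (mean 8.52 to 8.65 against 8.52 to 8.60). Of 12 heart muscle genes 6 were called higher and 1 lower, with a mean of 6.59 to 8.27 against 5.80 to 5.93. Of 5 endothelial genes 3 were called lower (mean 7.15 to 8.13 against 8.43 to 8.51), of 7 myelin genes 2 lower (mean 11.98 to 12.52 against 12.60 to 12.64), and of 6 microglia genes 2 higher (mean 8.73 to 9.14 against 8.40 to 8.66). Other list means overlapped sham. They were those of homeostatic astrocyte (10.79 to 11.61 against 11.50 to 11.52), Schwann cell (8.45 to 8.86 against 8.57 to 8.65) and sensory ganglion genes (5.60 to 6.50 against 6.27 to 7.10). In 48 h rostral cord the heart muscle mean was higher still, 9.49 to 10.89 against 5.87 to 5.91 in sham rostral cord. The part of these markers in the differences of the 7 genes was not tested.

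Above T6 and at the earlier time the 7 genes lay near their sham levels. In 48 h rostral against sham rostral cord the differences ran from -0.26 ± 0.20 (Gabra2) to 0.20 ± 0.18 (Glra3), where 0.610% of all genes were called. Slc32a1 differed by -0.06 there, with a 95% interval from -0.52 to 0.40, and Gad1 by 0.02, with an interval from -0.28 to 0.32. On the probe sets used, Slc6a5 was the gene whose groups did not overlap. It read 11.46, 11.48, 11.53 and 11.46 in 48 h rostral cord and 11.44, 11.40, 11.24 and 11.30 in sham rostral cord. Its difference was 0.14 ± 0.32, and non-overlap in that direction held for 4.63% of all genes. The second Gad2 probe set, 1421978_at, lay wholly lower at 48 h (7.94 to 8.07 against 8.10 to 8.36). The intervals given here use a spread pooled over all groups, array 271 included. Without the caudal arrays 271, 274 and 280 the SE was smaller. With every probe set tested as its own feature, Gabra2 then differed by -0.26 ± 0.11 (limma, unadjusted p = 0.0244, adjusted p = 0.204). Slc6a5 differed by 0.14 ± 0.06 (unadjusted p = 0.0339, adjusted p = 0.242).

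At 24 h in caudal cord the differences from sham ran from -0.11 ± 0.20 (Glra3) to 0.20 ± 0.36 (Slc6a5), where 0.00550% of all genes were called. In rostral cord at 24 h they ran from -0.06 ± 0.22 (Gabra2) to 0.30 ± 0.19 (Glra3), where 0.00% were called. The Glra3 value came from the rostral array numbered 283, which read 9.24 against 8.57 and 8.71 on the other 24 h rostral arrays. Without both arrays numbered 283, the 24 h differences ran from -0.09 to 0.16 in caudal and from -0.05 to 0.12 in rostral cord. In 48 h against 24 h rostral cord they ran from -0.21 ± 0.22 (Gabra2) to 0.04 ± 0.34 (Slc6a5), where 0.363% of all genes were called. In these 4 comparisons 0 of the 7 genes had an unadjusted p under 0.05 with all arrays. On the probe sets used, none of the 7 lay wholly below the group it was set against. Of all genes, 10.5% did at 24 h in caudal cord and 4.35% at 24 h in rostral cord. In 48 h rostral cord 7.46% of all genes did so against sham and 6.33% against 24 h.

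Between regions, sham cord showed no called gene among the 7, where 0.335% of all genes were called. Slc32a1 averaged 10.81 ± 0.05 in sham caudal cord (SD, n = 3) and 10.81 ± 0.09 in sham rostral cord (SD, n = 4). On the probe sets used, Glra3 was the gene whose groups did not overlap. It read 8.80, 8.76 and 9.00 in sham caudal cord and 8.58, 8.52, 8.43 and 8.65 in sham rostral cord, a difference of 0.31 ± 0.19 (SE, adjusted p = 0.964). Its dimmer probe set, 1450239_at, did not overlap in the opposite direction, at 5.05 to 5.16 in sham caudal cord and 5.28 to 5.61 in sham rostral cord (-0.29 ± 0.14, adjusted p = 0.642). Non-overlap with caudal cord higher held for 12.1% of all genes. With caudal cord lower, which none of the 7 showed on the probe set used, it held for 8.67%. Other probe sets of Gad1 (1416562_at, 8.88 to 10.05 against 10.20 to 10.31), Slc6a5 (1425992_at, 5.45 to 6.22 against 6.39 to 6.84) and Slc32a1 (1447573_at, 5.33 to 5.60 against 5.62 to 5.79) did show it. A dim Gabra2 probe set, 1420299_at, lay wholly higher in caudal cord. At 48 h, 3 of the 7 genes had an unadjusted p under 0.05 between caudal and rostral cord, namely Slc32a1, Slc6a5 and Glra1, as had 27.8% of all genes, and none was called.

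Whether the 48 h effect itself differed between caudal and rostral cord was tested as a contrast of differences. None of the 7 genes was called, with or without array 271, where 0.561% of all genes were called with it and 1.17% without it, 0.368% in the negative direction. With all arrays 0 of the 7 had an unadjusted p under 0.05. The estimates were -0.62 ± 0.32 for Slc32a1 (SE, adjusted p = 0.417) and -0.95 ± 0.53 for Glra1 (adjusted p = 0.424). Without array 271 they were -0.26 ± 0.13 for Slc32a1 (adjusted p = 0.395, 95% interval from -0.52 to 0.00) and -0.34 ± 0.16 for Glra1 (unadjusted p = 0.0445, adjusted p = 0.369). The 48 h effect is thus not shown to differ between the regions.

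In the order of group means, 48 h caudal cord was lowest for 6 of the 7 genes, and for Glra3 it was highest. Every pair of neighbours in these orders had overlapping arrays. Over the 21 arrays, array 271 was the lowest for those 6 genes and the highest for Glra3.

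The genes most alike to the mean of the 7, each centred on its own mean, were sought over the 21 grouped arrays by Pearson correlation. They were Nefm (0.99), Mdm4, Dzank1, Aak1, Ralgapa1, Wdfy3, Snap25 and Ndrg4 (all 0.98 to 0.99), of which Nefm and Snap25 are among the pan-neuronal genes. Over the 20 arrays without 271 they were Sgip1 (0.89), Nefm, Dzank1, Mdm4, Aak1, Psip1, Zfhx4 and Cstf2 (0.85 at the lowest). These points share groups, and the first set shares array 271, on which the pan-neuronal mean was lowest. Each gene is part of the mean of the 7, which by itself raises its correlation with that mean. Single genes correlated with it at 0.72 to 0.98 over 21 arrays, other than Glra3 at -0.43. Over the 20 arrays without 271 they did so at 0.56 to 0.74, with Glra3 at 0.20. Between themselves, Slc32a1 and Glra1 correlated at 0.94 over 21 arrays and at 0.51 over 20, and Gad1 and Slc32a1 at 0.91 and 0.42. Over the 20 arrays pairs ran from -0.50 (Slc6a5 and Glra3) to 0.67 (Gad2 and Slc6a5). Several lay near 0, such as Slc32a1 and Slc6a5 at 0.05 and Gad1 and Gabra2 at 0.03.

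Of the wider machinery of both transmitters, 51 genes in 9 lists were measured. In 48 h caudal against sham caudal cord 2 were called lower and 1 higher with all arrays, and 27 of the 51 had an unadjusted p under 0.05, where 12.5% of all genes were called and 34.3% had such a p. Their median difference was -0.21. GABA uptake and breakdown had 1 of 5 genes lower, the other GABA-A receptor subunits 1 of 14 lower, and inhibitory neuron peptides and markers 1 of 8 higher. The lists of glycine uptake and breakdown (3 genes), other glycine receptor subunits (3), GABA-B receptors and partners (3), the inhibitory postsynaptic scaffold (5), chloride transport (3) and inhibitory neuron transcription factors (7) had none.

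Aldh5a1 encodes succinic semialdehyde dehydrogenase, the last step of GABA breakdown. It read 10.82, 10.87 and 10.76 in sham caudal cord, 10.68, 10.80 and 10.98 at 24 h, and 9.33, 10.16, 10.44 and 10.46 at 48 h. All 4 arrays at 48 h were lower than the others. Aldh5a1 fell against sham by 0.72 ± 0.18 (SE, adjusted p = 0.0175) with all arrays, and the difference was -0.46 ± 0.09 without array 271 (adjusted p = 0.00366). It was also lower than in 48 h rostral cord (-0.72, adjusted p = 0.0121) and than in 24 h caudal cord (-0.72, adjusted p = 0.0243). Without both arrays numbered 283 the difference from 24 h caudal cord was -0.64 (adjusted p = 0.181), and Gabra5 and Gabrb2, which were called there with all arrays, lost that call too, where 1.02% of all genes were called.

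Gabrb2 encodes the beta2 subunit of the GABA-A receptor. It read 9.60, 9.53 and 9.31 in sham caudal cord, 9.44, 9.26 and 9.66 at 24 h, and 8.39, 8.65, 9.07 and 9.22 at 48 h, again with every 48 h array below the others. The difference from sham was -0.65 ± 0.16 (SE, adjusted p = 0.0158), and -0.51 ± 0.14 without array 271 (adjusted p = 0.0233). Its other probe sets differed by -0.61 (1428203_at, adjusted p = 0.0558), -0.37 (1428204_at), -0.28 (1428205_x_at) and, for one with a mean of 5.74, 0.40 (1450319_at). The lower level was called in 1 of its 5 probe sets. Gabra5, the alpha5 subunit, was lower than in 24 h caudal cord (-0.41 ± 0.11, adjusted p = 0.0390) and than in 48 h rostral cord (-0.53 ± 0.11, adjusted p = 0.00399), and Gphn, which encodes the scaffold protein gephyrin, than in 48 h rostral cord (-0.34 ± 0.10, adjusted p = 0.0429). Without array 271 Gabra5 was not called against 24 h (-0.34, adjusted p = 0.0557), nor was Gphn against 48 h rostral cord (-0.26, adjusted p = 0.0773). Without both arrays numbered 283 neither of these was called (adjusted p = 0.247 for Gabra5 and 0.0632 for Gphn), while Gabra5 was still called against 48 h rostral cord (adjusted p = 0.00727, 7.54% of all genes called).

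Pdyn, the precursor of dynorphin peptides of dorsal horn neurons, rose. It read 6.52, 6.55 and 6.67 in sham caudal cord, 6.68, 6.69 and 6.86 at 24 h, and 7.31, 7.37, 6.92 and 6.75 at 48 h. The difference between 48 h and sham was 0.51 ± 0.13 (SE, adjusted p = 0.0169), and 0.43 ± 0.12 without array 271 (adjusted p = 0.0245).

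Without array 271, 3 of the 51 genes were called higher and 5 lower against sham, where 15.1% of all genes were called. Penk, the precursor of enkephalins, then rose by 0.42 ± 0.10 (SE, adjusted p = 0.00930) and Gal, the precursor of galanin, by 0.33 ± 0.09 (adjusted p = 0.0176). Slc6a9, which encodes the glycine transporter GlyT1 of astrocytes, differed by -0.44 ± 0.14 (adjusted p = 0.0434), Lhfpl4, a partner of GABA-A receptors at synapses, by -0.33 (adjusted p = 0.0128), and Nos1, the neuronal nitric oxide synthase, by -0.32 (adjusted p = 0.0137). Without the caudal arrays 271, 274 and 280, 5 were called higher and 14 lower, where 25.6% of all genes were called. Against 24 h caudal cord without array 271, 3 were lower, Aldh5a1, Gabrb2 and the GABA-B receptor partner Kctd8 (-0.63, adjusted p = 0.0484). Of all genes, 3.69% were called lower there. Against 48 h rostral cord without array 271, 4 were lower, Aldh5a1, Gabra5, Gabrb2 and Iqsec3 (-0.44, adjusted p = 0.0339), the last an exchange factor that binds gephyrin. In that comparison 4.81% of all genes were called lower. Kctd8, Gphn, Lhfpl4, Nos1 and Slc6a9 have further probe sets, whose values are not given here.

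No gene of these lists was called in the other comparisons with all arrays, and the values with the smallest p are given here. In 48 h rostral against sham rostral cord Gabrr2 differed by 0.84 and Sst by -0.29. In 24 h against sham cord, caudal Gabrq differed by 0.37 and Gabre by 0.27, and rostral Sst by -0.19 and Gabrd by -0.15. In 48 h against 24 h rostral cord Gabrr2 differed by 0.58 and Lhx5 by -0.20, and between sham caudal and sham rostral cord Gabrd by -0.17 and Gabra5 by -0.20. In the region difference of the 48 h effect the values were 0.51 for Pdyn (adjusted p = 0.276) and -0.68 for Aldh5a1 (adjusted p = 0.316). Some calls were gained when arrays were left out. Without the caudal arrays 271, 274 and 280, Pdyn (0.62, adjusted p = 0.0414) and Aldh5a1 (-0.50, adjusted p = 0.0485) were called in the region difference, and Gabrr2 in 48 h rostral against sham rostral cord (0.84, adjusted p = 0.0230), with 4.88% of all genes called in each comparison. Without array 271, Lhfpl4 was called higher in sham caudal than in sham rostral cord (0.35, adjusted p = 0.0369), where 1.05% of all genes were called.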

How the data were processed

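The values analysed are the log2 signals that the authors deposited, used as they stand. The submitters' processing notes name RMA, with no version. Total RNA had been amplified and labelled with biotin, per the labels' protocols. Of 45101 probe sets, 34945 carry 1 gene symbol in the platform annotation and were used, 932 carry several, 9160 have none listed and 64 are controls. Per gene the probe set with the highest mean over all arrays was kept, giving 18193 genes.

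Groups follow the labels. In R 4.3.3, limma 3.58.1 (with statmod 1.5.0) estimated 6 group means from 21 arrays with a pooled spread, and 9 contrasts were tested, two-sided, each with Benjamini-Hochberg adjustment over all genes. The scripts were checked on simulated data. Members, lists, naming rule and tests were chosen with earlier results of these data known. Named were all members, genes of the pathway lists past an adjusted p of 0.05 (at most 8 per comparison, or the 2 smallest p-values where none passed) and the 8 genes most correlated with the members' mean. A few listed genes are not reported here.

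The labels do not say that a shared title number marks 1 animal, so the numbers were not used as pairs. Numbers also run in blocks with time, so an effect of their order cannot be told apart from treatment. The alternatives were other probe set summaries, centring, repeated quantile normalisation, brighter genes only, eBayes with trend, array weights, the compared groups alone, leaving out each array in turn, the title number as a block, and array 276 added to either time. Leaving out caudal arrays 271, 274 and 280, with or without both arrays numbered 283, and leaving out each array after 271, were added after seeing the data. Arrays have no read depth, and the number of arrays limits the precision.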

Additional observations from a re-analysis of the deposited data

Results flagged for a closer look

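In the 48 h caudal group, 1 array lay far from the other 3 for 2 genes. Gad1 read 10.49 on array 271 and 11.28 to 11.34 on the other 3 arrays. Glra1 read 8.91 on array 271 and 11.19 to 11.49 on the others. Of 21 groups of 4 arrays examined, 2 had such an array, and in both it was array 271. These groups are 7 genes on the same 3 sets of arrays and are not separate tests. No rate of chance is therefore set beside this count. Neither gene was called against sham with or without the array. No cause was tested.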

How the results depend on the processing

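Each comparison was repeated under 36 or 37 alternatives. In 6 of the 9 comparisons none of the 7 genes was called under any alternative run (24 h against sham in both regions, both 48 h comparisons within rostral cord, sham caudal against rostral, and the region difference). In 48 h caudal against sham caudal cord, 28 of 36 alternatives called none. There 1 gene was called with probe sets averaged per gene (Gabra2), with array weights (Slc32a1, with 6245 genes called in all) and without caudal arrays 271, 274 and 280, with or without both arrays numbered 283 (Slc32a1). Leaving out each array in turn gave 0 to 2 called genes and 805 to 5736 called genes in all. Slc32a1 and Gabra2 were called without 48 h caudal array 273, Slc32a1 and Glra1 without 274, and Gabra2 without sham caudal array 280. Against 24 h caudal cord and against 48 h rostral cord, array weights and the fits without caudal arrays 271, 274 and 280, with or without those numbered 283, each called 1 gene, Slc32a1, and leaving out each array gave 0 to 2. Slc6a5 was called against 48 h rostral cord without 48 h caudal array 272 (-1.10) or 273 (-1.05). With arrays centred on the pan-neuronal mean, Gad1 (0.27) and Gad2 (0.24) turned positive against sham, as did Gad1 against 24 h (0.14) and in the region difference (0.23). Gad2 in 48 h caudal against rostral cord turned to 0.11 without caudal arrays 271, 274 and 280, and without those numbered 283 as well. None of these 6 values was called, and the cause was not tested. Of 2289 single-gene values, 25 newly passed the threshold, and 109 more changed sign with neither value called. With the number as a random replicate block (correlation 0.14) limma called 0 of the 7 genes in any comparison, and with a fixed block, which could be fitted in the 3 comparisons between regions, also 0. Over 10 numbers with both regions, the correlation of caudal and rostral deviations from the group means ran from -0.45 to 0.53, exceeded 0.1 for 6, and was the best one for 6. Compared groups alone gave 142 called genes against sham.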

Other observations

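Rostral array 276, which the labels put at both 24 h and 48 h, read 11.28 for Gad1, 9.58 for Gad2, 10.74 for Slc32a1, 11.09 for Slc6a5, 11.23 for Glra1, 9.06 for Glra3 and 9.28 for Gabra2. Slc6a5 and Gabra2 lay below, and Glra3 within, the range of the 11 grouped rostral arrays. The mean of 12 heart muscle genes was 10.54 on array 276, 5.93 to 6.17 on 24 h rostral arrays and 9.49 to 10.89 on 48 h rostral arrays. Counting the array as 24 h or as 48 h called none of the 7 genes in any comparison.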
